A study of Mus musculus with 42 samples.

Results

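Kidneys of mice fed EpSA were compared with kidneys of mice fed chow at ZT 21. Zeitgeber time (ZT) counts hours from lights on, so ZT 21 falls late in the dark phase, when mice are active. EpSA stands for epoxystearic acid, which forms when oleic acid is oxidised. The comparison holds 6 of the 42 mice of the time course, 3 per diet, and all were taken at ZT 21 by label. All were wild-type male C57BL/6 mice that were 6 weeks old at the start and lived under a cycle of 12 h light and 12 h dark. For 14 weeks 1 group ate a standard chow, and the other ate a high-fat diet with EpSA at 3%. The fat-rich diet lacking EpSA is not analysed here, and effects of fat and of EpSA cannot be told apart.

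The deposited values are means over the mice of a diet and time, called pools here, and 2 of the 14 pools form the comparison. Values were read as FPKM, sequenced fragments scaled to transcript length and library size. Of 56691 genes, 13344 had a mean of at least 1 FPKM over the 14 pools and were analysed. A difference is EpSA minus chow on log2(FPKM + 1), a scale on which 1 stands for a doubling in genes well above 1 FPKM and which understates the fold of low genes. No spread between mice can be given, the depth behind the values is unknown, and no replicate check of the ZT 21 difference exists. In bulk tissue, fewer cells of a type and less RNA per cell cannot be told apart.

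The kidney filters plasma in the glomerulus, whose podocytes hold the filter, and reclaims most solutes in the proximal tubule. Reabsorption there is paid for by mitochondria that burn fatty acids. A circadian clock of activators (Arntl, Clock, Npas2) and repressors (Per, Cry and Nr1d genes) times many kidney genes, and feeding and lipids feed into it through nuclear receptors such as PPAR alpha. Markers of the labelled tissue passed the filter on low values, which uses all 14 pools: 22 of 22 proximal tubule genes, 16 of 16 of the thick limb and distal tubule, 14 of 15 of the collecting duct and 8 of 9 of podocytes. In the ZT 21 pools themselves the lowest of these values was that of the podocyte factor Wt1, at 1.14 FPKM in chow and 1.88 FPKM in EpSA. Proximal tubule markers had a median difference of -0.005, and Lrp2, the endocytic receptor megalin, stood at 120.1 FPKM in chow and 117.8 FPKM in EpSA.

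By the number of genes apart, ZT 21 was the time at which the diets differed most. In EpSA kidneys 120 genes were at least 1 higher (0.899% of the genes analysed) and 112 were at least 1 lower (0.839%), together 232 genes or 1.74%. At the other 6 times between 49 and 140 genes lay that far apart. At a difference of 0.5, the count was 1721 genes at ZT 21 and 398 to 750 genes at the other times. Among those at least 1 higher in EpSA were Cyp4a14 and Fabp1, the cell cycle inhibitor Cdkn1a and small RNA loci. Cyp4a14, Fabp1 and Cdkn1a did not pass the test given below, and fatty acid oxidation genes had a median difference of 0.04 over 34 genes. Among those at least 1 lower were genes of the nuclear-encoded respiratory chain and the ribosome, haemoglobin genes, Kap, Lpl and the transcriptional repressor Bcl6. Of the 232 genes, 161 were that far apart at no other time. On the same side by at least 1 at ZT 17 were 12 of the 232, and at ZT 25 were 10. Values were low for many of them: 124 had a mean under 5 FPKM, and 14 had a ZT 21 pool listed at 0.

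**Figure D1:**
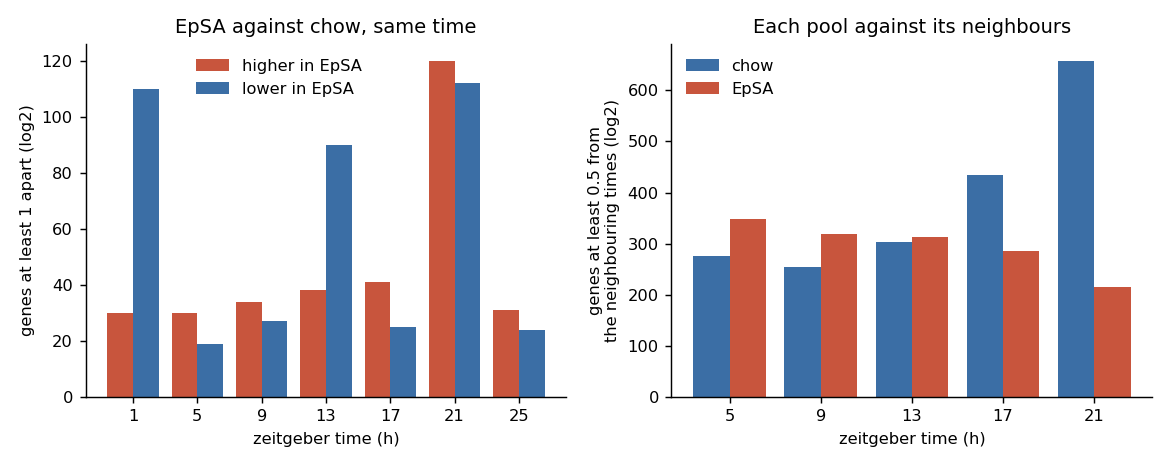
Left, number of genes at least 1 higher or lower (log2) in EpSA than in chow at each zeitgeber time. Right, number of genes of each pool at least 0.5 (log2) from the mean of the times 4 h before and after. The tallest bars of both plots stand at ZT 21, where 120 genes were higher and 112 lower, and where 658 genes of the chow pool and 215 of the EpSA pool lay away from their neighbours.

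The chow pool, more than the EpSA pool, stood away from its neighbouring times. Against the mean of ZT 17 and ZT 25 of the same diet, 67 genes of chow ZT 21 lay at least 1 away, 25 above and 42 below. In EpSA ZT 21 that number was 26, with 15 above and 11 below. The other 8 pools with neighbours on both sides had between 32 and 55 such genes. At a distance of 0.5 the counts were 658 genes for chow ZT 21, 215 for EpSA ZT 21 and 254 to 435 for the others, so the chow pool had the highest count and the EpSA pool the lowest. The SD of the departures over genes was 0.248 in chow ZT 21 and 0.171 in EpSA ZT 21.

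Among the 232 genes at least 1 apart, chow departed more from its neighbours in 164 (70.7%) and EpSA in 68. Over all 13344 genes analysed, chow departed more at ZT 21 in 8552. Among the genes at least 1 apart at ZT 5, 9, 13 and 17, the share in which chow departed more was between 42.6% and 69.4%. Both pools usually moved away from each other: of the 120 higher genes, chow was below its neighbours in 117 and EpSA above its own in 108. Of the 112 lower genes, chow was above in 107 and EpSA below in 103. A difference of 1 at ZT 21 itself favours such departures, so these counts describe the genes and support nothing. With chow ZT 21 replaced by the mean of its neighbours, 38 genes were at least 1 higher and 31 lower, and 18 and 11 of these were among the genes counted above. With EpSA ZT 21 replaced in the same way, the counts were 54 and 44, of which 40 and 41 were shared.

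The 2 pools also held the extremes of the time course. Chow ZT 21 was the highest or the lowest of all 14 pools in 35.5% of genes, highest in 13.5% and lowest in 21.9%. EpSA ZT 21 was an extreme in 24.0% of genes, and each of the other 12 pools in 5.01% to 19.3%. Chow ZT 21 had 27796 genes above 0, the fewest of any pool, against 29637 in EpSA ZT 21 and at least 28443 in every other pool. Its FPKM summed to 435621, the highest sum, against 411348 in EpSA ZT 21.

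The ZT 21 difference was tested with limma against the spread of the diet difference over the other 6 times, with Benjamini-Hochberg adjustment over all genes analysed. Against 0, 371 genes were higher in EpSA (2.78%) and 536 lower (4.02%) at an adjusted p under 0.05. These numbers shrank to 72 and 188 when ZT 5 was left out of the spread, and to 137 and 303 when ZT 13 was left out. Without ZT 17 and without ZT 25, 219 and 245 genes were called higher. Of the 232 genes at least 1 apart, 120 were among the genes called with all times. The lowest adjusted p was 0.018, and 3710 genes (27.8%) had an unadjusted p under 0.05. Below, a gene is called where it passed this test. Over all genes analysed, 59.6% had a difference above 0 at ZT 21, which is the background of the list counts below. All calls share the same 2 pools, so they are not independent of each other, and the error is a spread between times and not between mice. Higher genes made up 40.9% of the calls, but 51.0% with the pools scaled to equal sums, 26.9% after quantile normalization and 21.1% with the median difference set to 0. Against the mean difference of the other 6 times, limma called 0 genes, with 2798 genes (21.0%) at an unadjusted p under 0.05 and a lowest adjusted p of 0.059. Other settings gave up to 198 such calls, so this count depends on the filter, the pseudocount and the centring.

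Cyp4a14, a fatty acid omega-hydroxylase and a PPAR alpha target, stood at 15.4 FPKM in chow and 47.8 FPKM in EpSA, a difference of 1.58 that was not called (adjusted p = 0.18 by limma). Its difference was above 0 at all 6 other times, reaching 2.19. Fabp1, a fatty acid binding protein, stood at 0.267 FPKM in chow and 2.92 FPKM in EpSA, a difference of 1.63 (adjusted p = 0.083).

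Fatty acid oxidation as a whole lay close to the median of all genes. Over 34 members analysed the median difference was 0.04, with 18 above 0 and none called, beside a median of 0.07 over all genes. Cpt1a, which admits fatty acids to mitochondria, stood at 44.0 FPKM in chow and 54.1 FPKM in EpSA. Acadm, a beta-oxidation dehydrogenase, stood at 282.5 and 212.3 FPKM, and Ppara itself at 6.29 and 7.18 FPKM. Lpl, the lipase that frees fatty acids from circulating triglyceride, was called lower: 154.7 FPKM in chow against 50.9 FPKM in EpSA, a difference of -1.59 ± 0.28 (SE over times, adjusted p = 0.027). Both values lay outside the range of the other 6 pools of their diet, 75.6 to 147.9 FPKM in chow and 71.6 to 104.6 FPKM in EpSA. Among 29 genes of sterol and fatty acid synthesis the median was -0.22, with 21 below 0. That lay inside the range of the list median at the other 6 times, -0.23 to -0.02. Of these genes 4 were called lower, beside 4.02% of all genes. They included Cyp51, which demethylates lanosterol, at 81.9 FPKM in chow and 40.7 FPKM in EpSA (-0.99 ± 0.18, adjusted p = 0.027).

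Enzymes that make and clear oxylipins, the oxidised fatty acid mediators, had a median of 0.00 over 29 genes, and 1 was called. That gene was Cyp2c23, a kidney arachidonic acid epoxygenase, at 6.72 FPKM in chow and 14.3 FPKM in EpSA, a difference of 0.99 ± 0.17 (adjusted p = 0.026). The chow value was the lowest of its diet, whose other pools held 9.75 to 12.0 FPKM. Ephx1, microsomal epoxide hydrolase, stood at 24.0 and 58.2 FPKM (1.25, adjusted p = 0.071). Ephx2, the soluble epoxide hydrolase, stood at 230.8 and 194.1 FPKM (-0.25, adjusted p = 0.32).

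Cdkn1a encodes p21, which halts the cell cycle and rises in injured tubules. It stood at 4.33 FPKM in chow and 21.7 FPKM in EpSA, a difference of 2.09 (adjusted p = 0.093). EpSA stood at 15.3 FPKM at ZT 17 and 11.3 FPKM at ZT 25, against 5.04 and 5.87 FPKM in chow. At ZT 1 the order was the opposite, with 12.2 FPKM in chow and 5.47 FPKM in EpSA, and over the other 6 times the difference ran from -1.03 to 1.43. As a list, genes of tubular injury, Cdkn1a among them, were closer: of 12 analysed, 11 were above 0 with a median of 0.27, and none was called. That median lay within its range at the other 6 times, -0.29 to 0.39. Havcr1, the injury marker KIM-1, stood at 0.783 and 1.74 FPKM, and Lcn2, the marker NGAL, at 1.44 and 2.57 FPKM. Bcl6, a transcriptional repressor, stood at 21.6 FPKM in chow and 4.22 FPKM in EpSA, a difference of -2.11 that was not called (adjusted p = 0.24). Its difference ran from -1.54 to 1.85 at the other times, and at ZT 25 the order of the diets was the opposite, with 3.41 FPKM in chow and 14.9 FPKM in EpSA.

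**Figure D2:**
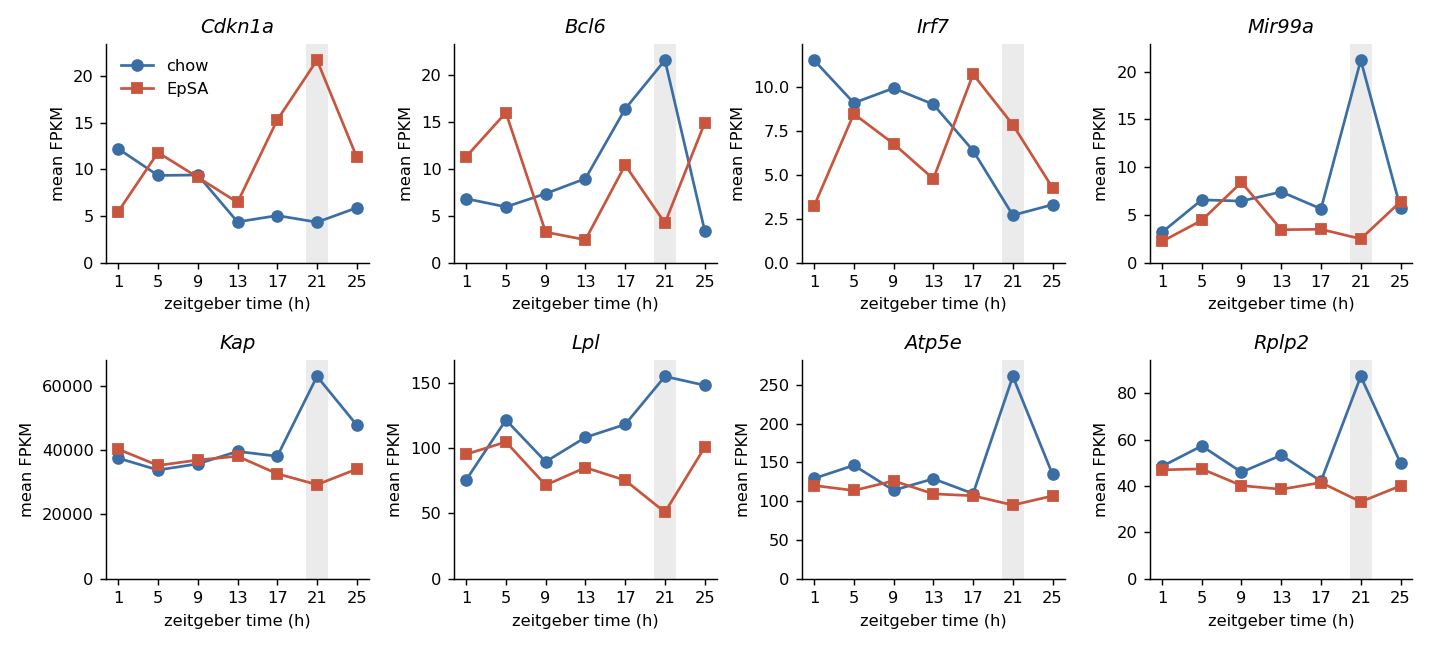
Mean FPKM of 8 genes over the 7 zeitgeber times in chow (circles) and EpSA (squares), with ZT 21 shaded and no error bars, since each point is 1 deposited mean. Mir99a, Kap, Atp5e and Rplp2 peak in chow at ZT 21, at 21.2, 62960.5, 260.8 and 87.3 FPKM, while Cdkn1a peaks in EpSA at 21.7 FPKM and Bcl6 stands at 21.6 FPKM in chow and 4.22 FPKM in EpSA.

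Genes of the nuclear-encoded respiratory chain, which build the complexes of oxidative phosphorylation, were lower in EpSA at ZT 21 as a group. Of 76 members 70 were below 0, 40 were called lower and none higher, and the median was -0.54. At the other 6 times the median ran from -0.17 to 0.12. Complex I (NADH dehydrogenase) had the most calls, with 24 of its 37 subunits called lower and all 37 below 0. Complex IV had 5 of 10 called, complex III with cytochrome c 5 of 10, ATP synthase 5 of 15 and complex II 1 of 4. Atp5e, a small subunit of ATP synthase, stood at 260.8 FPKM in chow and 95.0 FPKM in EpSA (-1.45 ± 0.17, adjusted p = 0.018). Ndufa2, a complex I subunit, stood at 414.7 and 152.0 FPKM (-1.44 ± 0.18, adjusted p = 0.018). Ndufs6 followed at 241.5 and 118.6 FPKM, and the complex IV subunits Cox6a1 and Cox5a at 914.1 against 403.4 FPKM and 150.5 against 80.7 FPKM.

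The chow pool departed further from its neighbouring times than the EpSA pool in 68 of the 76 members, beside 8552 of all 13344 genes. Respiratory chain members lay a median of 0.42 above their neighbouring times in chow and a median of -0.085 from them in EpSA. Chow ZT 21 was the highest of all 14 pools for 63 of the 76 members, and EpSA ZT 21 the lowest for 45. With chow ZT 21 replaced by the mean of its neighbours the median was -0.14, and with EpSA ZT 21 replaced it was -0.49.

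Cytosolic ribosomal protein genes, which build the translation machinery, were also lower in EpSA as a group. The median over 79 genes was -0.47, with 70 below 0, 30 called lower and 1 called higher, against medians of -0.20 to 0.06 at the other times. Rplp2, a protein of the ribosomal stalk, stood at 87.3 FPKM in chow and 33.2 FPKM in EpSA (-1.37 ± 0.15, adjusted p = 0.018). In chow its other pools held 42.1 to 57.3 FPKM. Rpl37a stood at 171.4 and 68.8 FPKM, and Rps21 at 245.8 and 102.4 FPKM. Chow ZT 21 was the highest of the 14 pools for 48 of the 79 genes. Proteasome subunits had a median of -0.27 over 31 genes, with 29 below 0 and 4 called lower, among them Psmb4 (117.8 and 76.8 FPKM).

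**Figure D3:**
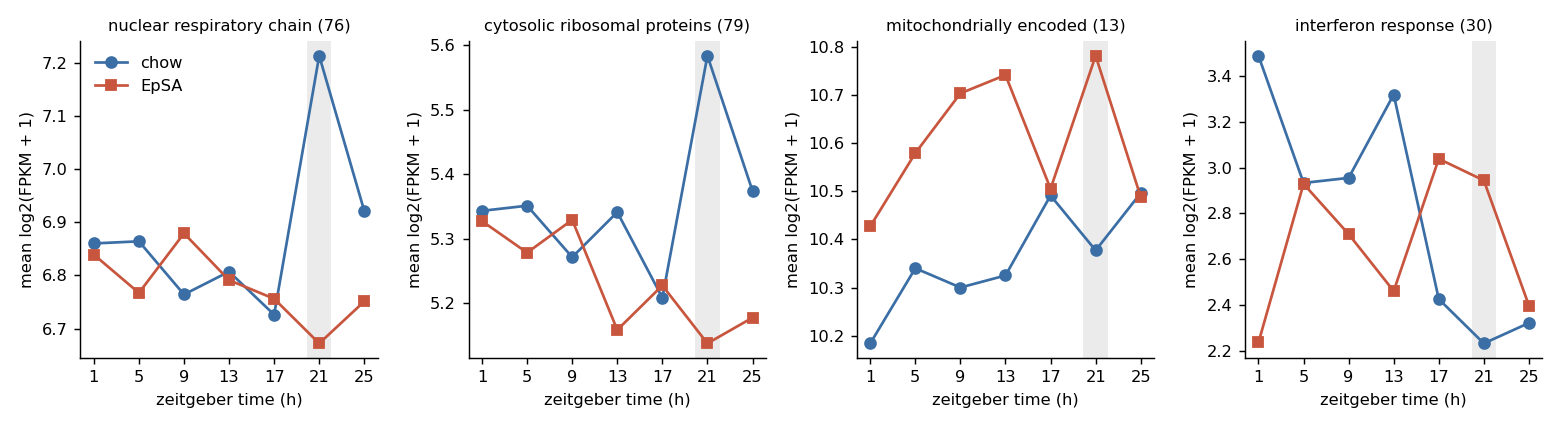
Mean log2(FPKM + 1) over the members of 4 gene lists in each pool, by zeitgeber time, chow as circles and EpSA as squares (ZT 21 shaded, number of genes in the title, each axis with its own range). At ZT 21 the chow mean of the respiratory chain is 7.21 against 6.67 in EpSA and that of ribosomal proteins 5.58 against 5.14, while EpSA is higher for the mitochondrially encoded genes (10.78 against 10.38) and interferon genes (2.94 against 2.23).

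Transcript length moved with these groups, and its part in them was not tested beyond the values given here. Among 11341 protein-coding genes, those up to 500 bases had a median difference of -0.39 (92 genes), and those over 6000 bases of 0.23 (914 genes), with a steady course between. Chow ZT 21 departed from its neighbours by 0.28 in the shortest class and -0.09 in the longest, while EpSA departed by -0.03 and 0.07. The departure of genes up to 750 bases minus that of genes over 6000 bases was 0.37 in chow ZT 21 and -0.33 in chow ZT 17, of which chow ZT 21 is a neighbour. In the other 8 pools it ran from -0.13 to 0.20, EpSA ZT 21 at -0.12. The median length was 751 bases in the respiratory chain list and 771 bases in the ribosomal list, against 2365 bases over all genes. With the median of each length class taken off at each time, the respiratory chain median was -0.29 and the ribosomal median -0.15. Members over 750 bases had a median of -0.40 over both lists (78 genes, 31 called lower and 1 higher), and the 77 shorter ones had -0.62. This cut does not take length away: coding genes of 750 to 1000 bases had a median of -0.22, and those of 1000 to 1500 bases of -0.13. Level moved with the difference as well, from a median of 0.17 below 2 FPKM to -0.24 above 100 FPKM.

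**Figure D4:**
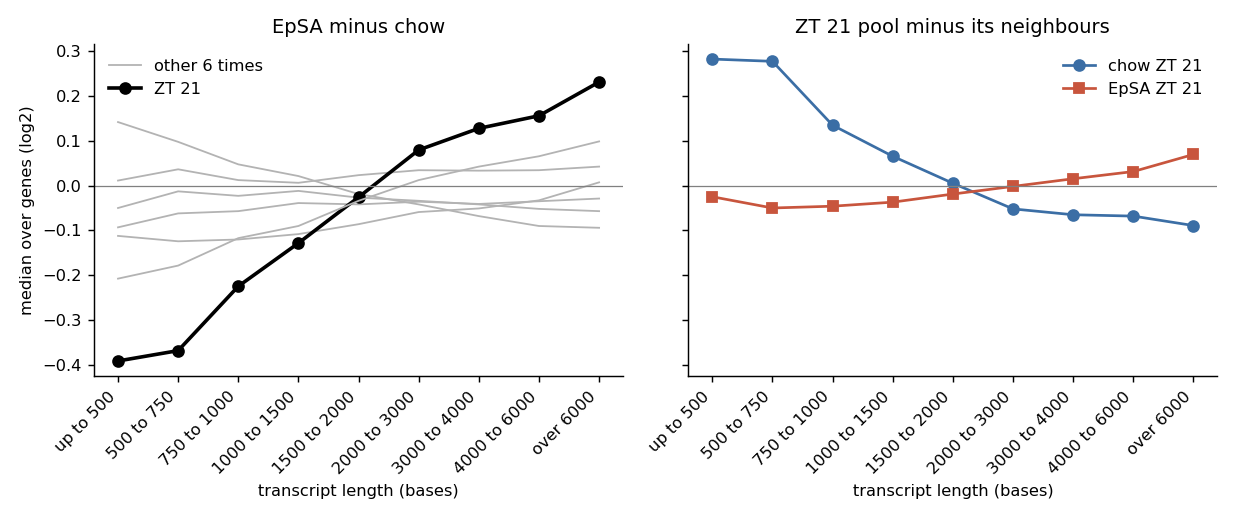
Median over protein-coding genes by class of transcript length (bases). Left, difference of EpSA minus chow (log2) at ZT 21 (black) and the other 6 times (grey). Right, ZT 21 pool minus the mean of ZT 17 and ZT 25 in each diet. The ZT 21 line runs from -0.39 in the shortest class to 0.23 in the longest, and the chow departure from 0.28 to -0.09.

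Mitochondrially encoded genes, the 13 protein genes on the mitochondrial chromosome, lay mostly on the other side of 0 from the nuclear-encoded ones. Their median was 0.45, with 10 above 0 and 2 called higher, against -0.001 to 0.37 at the other times. The called genes were mt-Co1, of complex IV, at 19341.6 FPKM in chow and 29151.8 FPKM in EpSA (0.59 ± 0.14, adjusted p = 0.045), and mt-Atp8, of ATP synthase, at 51.6 and 100.3 FPKM (0.95, adjusted p = 0.039). For mt-Co1 the chow value was the lowest of its diet, 21979.2 to 27424.7 FPKM elsewhere. These genes lie in a median length of 784 bases, close to that of the nuclear list. Their median was 0.62 with length classes taken off, and 0.27 and 0.22 with the chow or the EpSA pool replaced.

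Kap, an androgen-driven proximal tubule gene, had the highest FPKM of any gene in all 14 pools. It stood at 62960.5 FPKM in chow ZT 21 and 29285.6 FPKM in EpSA ZT 21, a difference of -1.10 ± 0.20 (adjusted p = 0.027 by limma). In the other pools it held 33834.3 to 47819.6 FPKM in chow and 32674.3 to 40317.3 FPKM in EpSA, so chow was above and EpSA below its own range. Its transcript length is 585.5 bases. Coding genes of 500 to 750 bases had a median difference of -0.37, and the part of length was not tested. Kap took 14.5% of the summed FPKM in chow ZT 21 and 7.12% in EpSA ZT 21. After quantile normalization the difference was 0.00, since that scaling gives the highest gene of each pool the same value. Slc5a2, the glucose transporter SGLT2 of the same tubule, was called higher at 51.0 and 88.7 FPKM (0.79, adjusted p = 0.026), and the lactate carrier Slc5a12 stood at 16.4 and 38.2 FPKM (1.17, adjusted p = 0.056).

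Interferon genes, which respond to type I and II interferon, were all higher in EpSA at ZT 21, but none was called. All 30 analysed were above 0 with a median of 0.78, and their adjusted p ran from 0.13 to 0.91. Their medians ran from -1.04 to 0.63 at the other times, which is the spread the test used. Irf7, the factor that amplifies the type I response, stood at 2.69 FPKM in chow and 7.83 FPKM in EpSA, a difference of 1.26 (adjusted p = 0.24). It held 10.7 FPKM in EpSA at ZT 17 and up to 11.5 FPKM in chow at other times. Chow ZT 21 was the lowest of the 14 pools for 16 of the 30 genes. Markers of macrophages and other immune cells had a median of 0.04 over 14 genes, and summed to 103.6 FPKM in chow ZT 21 and 106.3 FPKM in EpSA ZT 21.

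Promoters of interferon genes were searched for the interferon-stimulated response element, which the factors STAT and IRF bind. The motif, GAAA followed by any 2 bases and GAAA again, on either strand and with overlaps counted, occurred within 250 bases before the start in 14 of 23 interferon genes with a RefSeq promoter (60.9%) and in 3.46% of 27025 genes. A match is a description of letters and not a site shown to be bound. Shown are 3 of the genes that hold several matches, and Irf7, the interferon gene with a difference of at least 1, which held 0 matches in this window. Bases run 5′ to 3′ on the gene's strand in GRCm38.p6, and capitals mark the matches.
Isg15 (chr4:156200819-156201068, minus strand, 4.29 and 8.42 FPKM in chow and EpSA): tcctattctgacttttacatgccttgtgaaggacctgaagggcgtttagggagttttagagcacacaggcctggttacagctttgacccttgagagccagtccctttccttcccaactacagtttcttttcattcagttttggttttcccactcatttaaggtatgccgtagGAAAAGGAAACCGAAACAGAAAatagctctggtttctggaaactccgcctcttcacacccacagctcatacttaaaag
Ifit1 (chr19:34640639-34640888, plus strand, 3.15 and 6.39 FPKM): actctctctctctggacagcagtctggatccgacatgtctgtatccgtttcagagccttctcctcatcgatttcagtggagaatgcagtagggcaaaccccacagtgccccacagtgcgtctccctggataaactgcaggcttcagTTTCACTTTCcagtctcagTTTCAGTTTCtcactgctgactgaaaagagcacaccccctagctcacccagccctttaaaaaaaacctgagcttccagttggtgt
Ifit3 (chr19:34583279-34583528, plus strand, 14.9 and 27.7 FPKM): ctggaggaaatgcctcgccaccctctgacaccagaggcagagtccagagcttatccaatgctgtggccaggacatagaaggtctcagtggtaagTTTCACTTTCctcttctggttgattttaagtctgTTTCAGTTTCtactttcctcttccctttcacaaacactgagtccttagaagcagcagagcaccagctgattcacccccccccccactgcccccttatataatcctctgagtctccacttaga
Irf7 (chr7:141266425-141266674, minus strand, 2.69 and 7.83 FPKM): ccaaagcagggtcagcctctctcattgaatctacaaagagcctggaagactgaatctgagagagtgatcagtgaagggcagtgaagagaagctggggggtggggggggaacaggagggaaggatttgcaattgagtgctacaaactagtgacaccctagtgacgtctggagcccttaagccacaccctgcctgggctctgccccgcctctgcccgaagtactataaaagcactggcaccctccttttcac

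Small RNA loci lay far apart more often than protein-coding genes by count, which was not tested. Of 176 analysed, 38 were at least 1 higher in EpSA and 9 at least 1 lower, or 26.7%, against 0.82% of protein-coding genes. For miRNA loci the counts were 19 and 5 of 72, and for snoRNA loci 11 and 2 of 61. No such count was made at the other 6 times, and the classes were not matched for level. Some loci lay far apart at other times too: Mir26b differed by 1.54 at ZT 5 and by -1.44 at ZT 17. The libraries were of total RNA with paired reads of 150 bases, so values at loci of 57 to 110 bases come from whatever fragments fell there and do not measure mature miRNAs. Most named loci lie in introns on the strand of a host gene: Mir186 in Zranb2, Mir1898 in Zfr, Mir1191b in Nfic, Mir26b in Ctdsp1 and Mir7213 in Pdgfb.

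Mature sequences encoded at the named miRNA loci are given for identity, with the seed (bases 2 to 8) in capitals. They come from RefSeq on GRCm38.p6, 5′ to 3′. The 6 seeds differ from each other.
miR-99a-5p (chr16:77598940-77598961): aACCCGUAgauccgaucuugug
miR-10a-5p (chr11:96317186-96317208): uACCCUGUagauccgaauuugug
miR-186-5p (chr3:157544285-157544306): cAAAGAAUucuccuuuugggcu
miR-26b-5p (chr1:74394324-74394344): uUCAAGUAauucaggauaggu
miR-1898 (chr15:12171502-12171523): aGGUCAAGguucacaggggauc
miR-1191b-3p (chr10:81416240-81416261): aGACUCACuauguagcccaagc

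The Mir99a locus had the lowest difference of all named genes. It stood at 21.2 FPKM in chow ZT 21 and 2.48 FPKM in EpSA ZT 21 (-2.67 ± 0.38, adjusted p = 0.019). Its other chow pools held 3.17 to 7.41 FPKM, so the chow ZT 21 value alone stood apart. The locus lies in an intron of Mir99ahg on the same strand. Mir186, Mir1898, Mir1191b and Mir10a were called higher. Mir186 stood at 2.46 FPKM in chow and 11.7 FPKM in EpSA (1.88, adjusted p = 0.032), and Mir1898 at 1.52 and 9.55 FPKM (2.07, adjusted p = 0.035). Mir1191b was listed at 0 in chow ZT 21 and stood at 3.36 FPKM in EpSA (adjusted p = 0.018), and its other pools held 0.697 to 2.60 FPKM. Mir10a stood at 2.06 and 6.96 FPKM (1.38, adjusted p = 0.019) and was higher in EpSA at all 6 other times as well. Mir26b was listed at 0 in chow ZT 21 and stood at 2.42 FPKM in EpSA, and was not called (adjusted p = 0.23).

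Nuclear-retained and splicing RNAs, which stay in the nucleus or hold introns that are spliced late, were higher in EpSA. Of 20 analysed, 18 were above 0 and 7 were called higher, with a median of 0.39. Over all genes 59.6% were above 0 and 2.78% were called higher, and 63.6% of coding genes of 2000 to 3000 bases were above 0. The list was chosen with earlier results of these data known, so these counts describe its members and support nothing. It has a median length of 2631 bases. Its median difference was also above 0 at the other 6 times, from 0.14 to 0.35. Srsf11, a splicing factor, stood at 19.4 FPKM in chow and 31.1 FPKM in EpSA (0.66 ± 0.10, adjusted p = 0.021), and Pnisr at 16.4 and 25.9 FPKM (0.63, adjusted p = 0.032). Malat1, an abundant nuclear RNA, stood at 349.7 and 514.2 FPKM (0.56, adjusted p = 0.22), and Neat1, the scaffold of paraspeckles, at 108.7 and 84.1 FPKM (-0.37, adjusted p = 0.14).

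None of the 18 clock genes analysed was called at ZT 21, and none lay at least 1 apart. Nfil3, a repressor of output genes, stood at 7.36 FPKM in chow and 12.0 FPKM in EpSA (0.63), and Per2 at 8.05 and 13.5 FPKM (0.68). Nr1d1, which represses Arntl, stood at 3.35 and 1.97 FPKM (-0.55). Dbp, an output activator, stood at 2.54 and 1.95 FPKM, and Arntl at 2.84 and 3.25 FPKM. Adjusted p ran from 0.24 to 0.94 over these genes, whose diet differences ranged widely over the other times, for Dbp from -1.56 to 1.16. The E-box CACGTG, searched on both strands in the same window, occurred in 4 of 15 clock genes with a promoter (26.7%) and in 6.86% of all genes.

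Markers of other cell types moved at ZT 21 as follows, and their part in the results was not tested. Haemoglobin genes, from red blood cells, were lower in EpSA: Hba-a2 stood at 65.3 FPKM in chow and 11.7 FPKM in EpSA (-2.39 ± 0.35, adjusted p = 0.019), and Hba-a1, Hbb-bs and Hbb-bt were called lower too. The first and Hba-a1 are near-identical copies, so reads may be split between them. The red blood cell list had a median of -0.63 over 7 genes, with 4 called, and its median was below 0 at every other time (-0.51 to -0.18). Its median length was 703 bases. Coding genes of 500 to 750 bases had a median difference of -0.37, and the part of length was not tested. Summed, the list held 594.2 FPKM in chow ZT 21 and 312.8 FPKM in EpSA ZT 21. Alas2 and Slc4a1, which are not globins, stood at 2.74 against 2.98 FPKM and 8.16 against 8.72 FPKM. Slc4a1 is also made in the collecting duct.

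Podocyte markers were higher in EpSA, with 7 of 8 above 0, a median of 0.47 and 2 called. Over all genes 59.6% were above 0 and 2.78% were called higher. The markers had a median length of 4075 bases. Coding genes of 4000 to 6000 bases had 78.9% above 0 and a median of 0.155, and the part of length was not tested. Nphs1, nephrin of the slit diaphragm, was called higher at 2.04 FPKM in chow and 3.93 FPKM in EpSA (0.70 ± 0.17, adjusted p = 0.049). Summed podocyte FPKM was 67.4 in chow ZT 21 and 103.6 in EpSA ZT 21, the highest of the 14 pools. Endothelial markers had a median of 0.40 over 12 genes with none called, above the -0.31 to 0.29 of the other times. Matrix genes had a median of 0.30 over 26, within the -0.33 to 0.34 of the other times, and 1 was called. The called matrix gene was Col4a3 of the glomerular basement membrane (24.6 and 47.0 FPKM, adjusted p = 0.025). The endothelial and matrix lists had median lengths of 3531 and 4450 bases. Coding genes of 3000 to 4000 bases had a median difference of 0.127. Fat tissue markers had a median of -0.24 over 12 genes and none called, within -1.43 to 0.73 at the other times.

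Among mineral and pressure hormones 13 of 15 genes were above 0 with a median of 0.20, and 1 was called. Ace, angiotensin-converting enzyme, was the called gene and was lower at 35.7 FPKM in chow and 21.5 FPKM in EpSA (-0.71 ± 0.15, adjusted p = 0.034). Cyp24a1, which inactivates vitamin D, stood at 3.27 and 12.2 FPKM (1.63, adjusted p = 0.14), and with chow ZT 21 replaced by its neighbours the difference turned to -0.46. Mt1, a metallothionein induced by zinc and glucocorticoids, was called lower at 43.8 and 19.7 FPKM (-1.11, adjusted p = 0.031). Other glucocorticoid targets were not called, and over the 16 analysed the median was 0.13, with 11 above 0 and 5 below. Sgk1 was higher in EpSA, at 18.8 and 31.4 FPKM (0.71). Tsc22d3 stood at 19.4 and 17.3 FPKM and Fkbp5 at 9.32 and 7.17 FPKM.

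Other named genes lay outside these lists. Ano3, of the anoctamin family, stood at 0.763 FPKM in chow and 3.79 FPKM in EpSA (1.44 ± 0.17, adjusted p = 0.018) and was higher in EpSA at all 6 other times, by 0.22 to 0.65. Npl, a sialic acid lyase, stood at 5.57 and 19.3 FPKM (1.63 ± 0.38), with an adjusted p of 0.046, close to the threshold. Nrtn, the neurotrophic factor neurturin, stood at 8.27 and 1.73 FPKM (-1.76 ± 0.19, adjusted p = 0.018), with 2.95 to 4.51 FPKM in the other chow pools. The histone genes Hist1h4h and Hist1h1c stood at 12.8 and 4.13 FPKM and at 81.0 and 39.5 FPKM, and both were lower in EpSA at all 6 other times. Among the long genes called higher, Smg1, a kinase of nonsense-mediated decay, stood at 3.13 and 5.73 FPKM (0.70, adjusted p = 0.019) and Kmt2a, a histone methyltransferase, at 3.27 and 6.10 FPKM (0.73, adjusted p = 0.020).

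**Figure D5:**
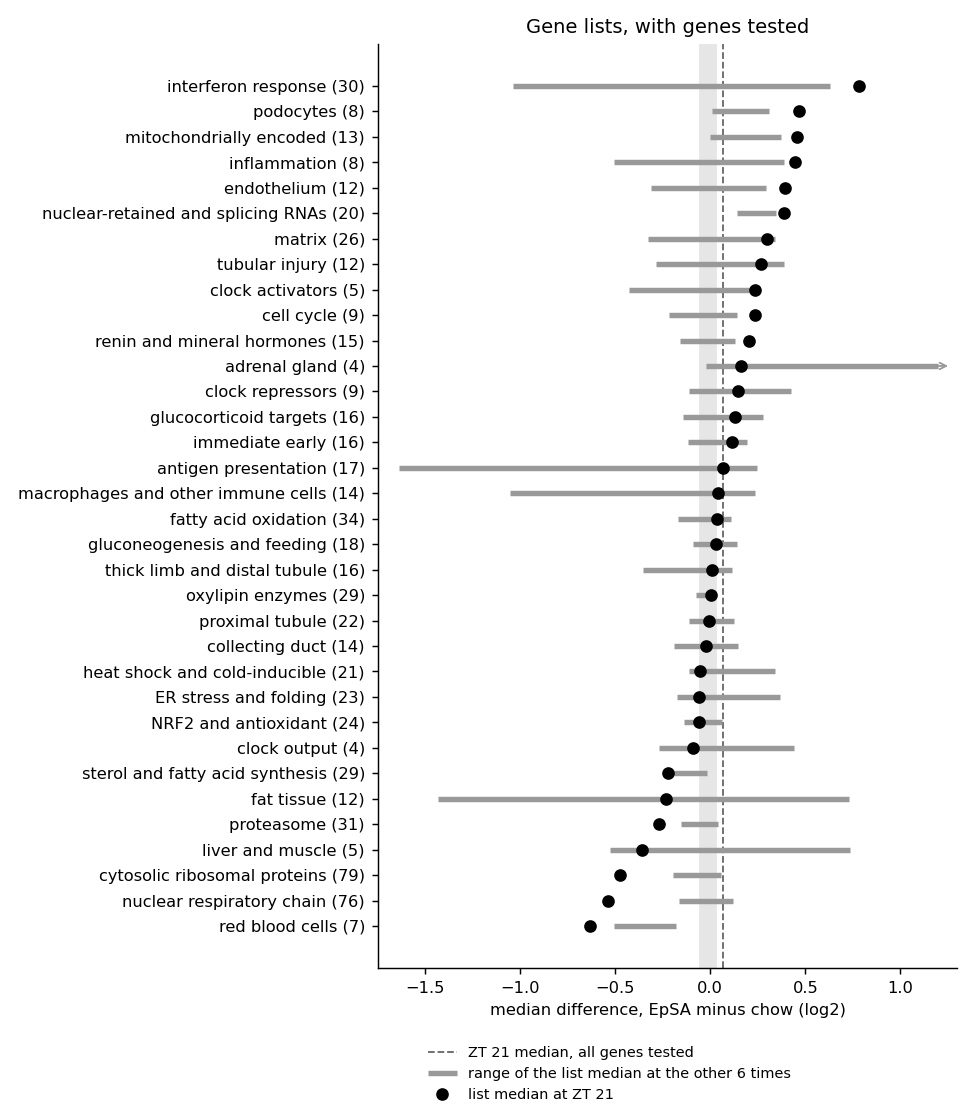
Median difference of EpSA minus chow (log2) of 34 gene lists at ZT 21 (dots), with the range of each median over the other 6 times (bars) and the number of genes analysed. The dashed line is the ZT 21 median of all genes, 0.07, the shaded band its range at the other times, and the arrow marks the adrenal bar, which goes on to 3.87. The respiratory chain (-0.54), ribosomal (-0.47), proteasome (-0.27) and red blood cell (-0.63) dots lie below their bars, and the interferon (0.78), podocyte (0.47) and mitochondrially encoded (0.45) dots above theirs. Also above their bars are inflammation (0.44), endothelium (0.40), nuclear-retained and splicing RNAs (0.39), cell cycle (0.23) and renin and mineral hormones (0.20). The dashed line of all genes lies above its band as well.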

How the data were processed

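Kidney total RNA was sequenced as paired reads of 150 bases on an Illumina Novaseq, per the labels' protocols. The authors deposited 1 table per diet, with 1 column per time. The deposited values were read as FPKM, since they are not whole and their sums differ, but no header names the unit. Their last decimals are those of means of 3 values, and each column was therefore taken for a mean that the authors made over 3 mice. The EpSA table was matched through the file named in that group's descriptions. Aligner, counting tool, build and annotation are not given in the sources used here, and the depth is unknown.

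Analysed were genes averaging at least 1 FPKM over the 14 pools, on log2(FPKM + 1). With means alone, the 2 ZT 21 pools were compared without a test. limma 3.58.1 (R 4.3.3) was then fitted to the 7 differences, 1 per time. A single coefficient for ZT 21 leaves 5 residual degrees of freedom, and the ZT 21 pools are assumed to vary like the others. Departures are a pool minus the mean of the pools 4 h before and after. Lengths, coordinates and classes come from a GENCODE annotation of GRCm38, which may not be the authors'. Of the identifiers, 52073 had a symbol. The members and the 34 gene lists were chosen with earlier results of these data known. Named are all clock genes, the 15 highest and 15 lowest differences with a symbol that is not a model number, up to 4 genes per list with a difference of at least 0.5, and the 10 lowest p per direction and test. Other list members were named as examples after their values were seen, and some genes that the rule selects are not reported here. On simulated data with 13344 genes, the test against 0 recovered 12 of 50 genes changed by 0.5 and 35 of 50 changed by 1. It recovered 45 of 50 changed by 2, and 4 calls were false. In the deposited data, the SD of the diet difference over genes was 0.361 at ZT 21 and 0.205 to 0.27 at the other times. The share of false calls among the genes called in the deposited data was not tested. Other pseudocounts, filters and scalings were tried, as were single times left out and either ZT 21 pool replaced. Python 3.11.15 with pandas 2.3.3 and numpy 2.4.6 served for the other steps.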

Additional observations from a re-analysis of the deposited data

How the results depend on the processing

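No paired analysis was possible because each deposited column is a mean over mice, and for the same reason no single mouse could be left out. Equal sums, the removal of length classes and the replaced pools were chosen after seeing the data. Depth is unknown, so counting error limits low genes by an unknown amount. Genes at least 1 higher and lower in EpSA at ZT 21 (120 and 112) numbered 308 and 193 with a pseudocount of 0.1, 15 and 39 with a pseudocount of 5, 865 and 856 at a threshold of 0.5, and 45 and 27 among coding genes with length classes taken off. With chow ZT 21 replaced by its neighbours they were 38 and 31, and with EpSA ZT 21 replaced 54 and 44. Requiring a mean of at least 5 FPKM left 26 higher genes. Genes at least 1 from the neighbours in chow ZT 21 (67) and EpSA ZT 21 (26) numbered 184 and 87 with a pseudocount of 0.1, 10 and 3 with 5, and 12 and 3 with length classes taken off. A mean of at least 5 FPKM gave 22 and 6, and no filter gave 54 in EpSA.

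Genes called against 0 (371 higher, 536 lower) numbered 219 and 820 with the median difference set to 0, and 96 and 261 after quantile normalization. Removal of length classes gave 177 higher and equal sums 339 lower. Without ZT 5 in the spread 72 higher and 188 lower were called, without ZT 13 137 and 303, without ZT 17 219 higher and without ZT 25 245 higher. Of the 72 and 188 genes without ZT 5, 70 and 184 were among those called with it. Against the other 6 times 0 genes were called as reported, but 187 with a pseudocount of 5, 198 with a mean of at least 5 FPKM, 190 with no filter, 186 with the median set to 0, 58 with length classes taken off and 1 without ZT 1. List medians of the respiratory chain, the ribosome and mitochondrially encoded genes were -0.29, -0.28 and 0.24 after quantile normalization, -0.29, -0.15 and 0.62 with length classes taken off, and -0.14, -0.15 and 0.27 with chow ZT 21 replaced. The last was 0.22 with EpSA ZT 21 replaced. The interferon median kept its sign and moved by less than the spread of its medians over the other times under every alternative run.

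Among the genes selected for naming, 88 differences counted as moved and 58 as the same with chow ZT 21 replaced. With EpSA ZT 21 replaced, 66 counted as moved and 79 as the same. Signs turned for few values. Clock repressors stood at -0.10 with a mean of at least 5 FPKM and -0.19 with chow ZT 21 replaced, clock activators at -0.029 and fat tissue at 0.31 with EpSA ZT 21 replaced, adrenal markers at -0.028 after quantile normalization, and cell cycle genes at -0.066 with a mean of at least 5 FPKM. Among named genes, Cyp24a1 stood at -0.46 with chow ZT 21 replaced, Alb at -0.11 and Trbd1 at 0.00 with EpSA ZT 21 replaced, and Kap at 0.00 after quantile normalization.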

Other observations

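Further gene lists held few calls at ZT 21. Antioxidant genes had a median of -0.06 over 24 genes with 3 called lower, the superoxide dismutase Sod1 (173.1 FPKM in chow and 98.0 FPKM in EpSA, adjusted p = 0.039 by limma), the peroxidase Gpx1 (594.3 and 357.9 FPKM, adjusted p = 0.025) and the peroxiredoxin Prdx6 (54.8 and 41.9 FPKM, adjusted p = 0.043). Nqo1, a quinone reductase, lay on the other side at 24.5 and 37.0 FPKM (0.58, adjusted p = 0.067). Among heat shock and cold-inducible genes the median was -0.06 over 21 genes. Hspe1, the mitochondrial cochaperonin, was called lower at 167.5 and 95.4 FPKM, and was not lower in EpSA at any other time, with differences of 0.01 to 0.23. Rbm3, an RNA-binding protein induced by cold, was called higher at 7.21 and 12.3 FPKM (0.70, adjusted p = 0.027). Of 16 immediate early genes, with a median of 0.11, 1 was called lower, Jund at 39.0 and 23.0 FPKM (-0.74, adjusted p = 0.025).

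No gene was called in the lists of inflammation (median 0.44, 8 genes), cell cycle (0.23, 9), antigen presentation (0.07, 17), gluconeogenesis and feeding (0.03, 18), thick limb and distal tubule (0.01, 16), collecting duct (-0.02, 14), ER stress and folding (-0.06, 23), liver and muscle (-0.36, 5) or adrenal gland (0.16, 4). Clock activators, repressors and output genes had medians of 0.23, 0.15 and -0.09 over 5, 9 and 4 genes. ER stress and folding genes departed from the neighbouring times by a median of 0.19 in chow, with 20 of 23 above, and of -0.19 in EpSA, with 0 of 23 above. By class, 8 of 766 pseudogenes were at least 1 higher in EpSA and 24 at least 1 lower, and of 26 antigen receptor segments 5 were higher and 1 lower.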
